A study of Drosophila melanogaster with 2 samples.

Results

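The cytosolic ribosomal protein genes of Drosophila melanogaster were taken as the protein-coding genes whose symbols begin with RpL or RpS, plus sta, in the dm6 annotation of Ensembl. The rule gave 93 genes among 13945 protein-coding genes on 6 chromosome arms. By symbol alone, they comprise 50 genes of the large subunit, 4 of the ribosomal stalk, RpLP0-like among them, and 39 of the small subunit. By arm, 23 lie on 3R, 21 on 2R, 19 on 2L, 15 on X, 14 on 3L and 1, RpS3A, on 4. The data are peak lists from ChIP-seq, the sequencing of chromatin pulled down with an antibody, for CG8388 fused at its C-terminus to GFP in a stable transgenic fly line. Both libraries, biological replicates 2 and 3, came from mixed-sex whole embryos aged 0 to 14 h, precipitated with an anti-GFP antibody, and form 1 group with no second condition. The cell types behind any summit are therefore mixed, and whether the native CG8388 protein is also present in the line is not given in the sources used here. Input, mock and untagged libraries were not analysed here, so signal that depends on CG8388 cannot be told apart from signal that promoters of this kind give in any precipitation. The depth of either library is unknown, because peak lists carry no read totals, and each interval given covers counting error only.

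Ribosomal proteins are the protein part of the ribosome, and with few exceptions each is needed in equal number with the others, so their genes are transcribed at high and matched rates in nearly every cell. In flies many of these promoters lack a classical TATA box and start transcription in a run of pyrimidines called the TCT initiator. Other elements of housekeeping promoters in flies are the DNA replication-related element (DRE), bound by Dref, and motif 1, bound by the zinc finger protein M1BP. Several ribosomal protein genes carry small nucleolar RNA (snoRNA) genes in their introns.

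The promoters below are those of 4 leading genes whose summit lies upstream of the transcription start site (TSS), followed by a duplicated pair in which 1 copy had a summit and the other had none. Each is read 5′ to 3′ on the strand of the gene from the RefSeq copy of Release 6, up to the nearest annotated exon upstream, and ends 10 bases into the transcript. Capitals mark a DRE (TATCGATA) or a TCT initiator (CTTTC or CTTTT). The summit is base 99 of the RpL34b sequence (3R:9401217-9401476, minus strand), base 132 for RpS27 (3R:25247505-25247657, minus), base 101 for RpL14 (3L:8600880-8601015, plus) and base 169 for RpL34a (3R:26059258-26059495, minus). It is base 1 for RpL10Ab (3L:11822601-11822860, plus), and RpL10Aa (3R:15037116-15037375, plus) has no summit in any list.
RpL34b: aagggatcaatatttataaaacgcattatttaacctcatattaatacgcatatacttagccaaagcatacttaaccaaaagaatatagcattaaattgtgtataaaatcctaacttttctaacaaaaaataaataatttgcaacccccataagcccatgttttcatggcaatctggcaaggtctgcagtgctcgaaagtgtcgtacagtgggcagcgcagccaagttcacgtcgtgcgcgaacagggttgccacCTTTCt
RpS27: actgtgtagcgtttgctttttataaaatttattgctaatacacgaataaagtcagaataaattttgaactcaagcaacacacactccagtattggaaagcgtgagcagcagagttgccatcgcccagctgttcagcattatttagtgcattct
RpL14: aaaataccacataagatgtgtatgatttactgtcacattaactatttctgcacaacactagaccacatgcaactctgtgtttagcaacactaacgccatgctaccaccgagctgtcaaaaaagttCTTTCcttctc
RpL34a: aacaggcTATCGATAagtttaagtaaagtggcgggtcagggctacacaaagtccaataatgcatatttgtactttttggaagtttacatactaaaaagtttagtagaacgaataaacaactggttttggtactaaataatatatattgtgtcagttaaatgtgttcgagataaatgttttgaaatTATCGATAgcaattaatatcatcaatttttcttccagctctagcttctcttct
RpL10Ab: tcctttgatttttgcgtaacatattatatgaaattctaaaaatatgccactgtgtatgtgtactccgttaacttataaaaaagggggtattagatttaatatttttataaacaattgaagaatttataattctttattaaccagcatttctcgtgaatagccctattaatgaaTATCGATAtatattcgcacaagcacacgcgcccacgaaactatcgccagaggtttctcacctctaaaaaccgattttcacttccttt
RpL10Aa: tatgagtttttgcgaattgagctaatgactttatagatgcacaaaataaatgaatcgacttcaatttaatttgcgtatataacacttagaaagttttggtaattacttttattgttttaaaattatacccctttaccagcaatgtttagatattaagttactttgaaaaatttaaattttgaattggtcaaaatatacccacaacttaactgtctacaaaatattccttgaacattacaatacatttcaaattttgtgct
The RpL34a promoter holds 2 copies of the DRE, and the RpL10Ab promoter holds 1 copy that the RpL10Aa promoter lacks. The RpL34b summit falls in a long stretch rich in A and T, whereas the RpL14 and RpS27 summits fall in mixed sequence close to the start.

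Most cytosolic ribosomal protein genes had a CG8388 summit at the promoter. In the list that passed the authors' reproducibility threshold, 73 of 93 genes had a summit within 500 bp of a TSS (78.5%, Wilson 95% interval 69.1 to 85.6), where 20.4% of all protein-coding genes had one. In the pooled list 84 genes had one, against 47% of all genes. In the replicate 2 list the count was 82, against 43.8%, and in the replicate 3 list it was 86, against 52.3%. The last 3 lists hold 30000 peaks each, so their length was set by the authors and not by the signal. Among the leading 6075 peaks of each replicate, as many as in the thresholded list, 70 members had a summit in replicate 2 (20.3% of all genes) and 73 in replicate 3 (21.3% of all genes). The 2 subunits, as grouped by symbol, had near-equal shares: 40 of 50 large subunit genes and 30 of 39 small subunit genes. Of the genes with stalk symbols 3 of 4 had a summit, all but RpLP0-like.

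**Figure D1:**
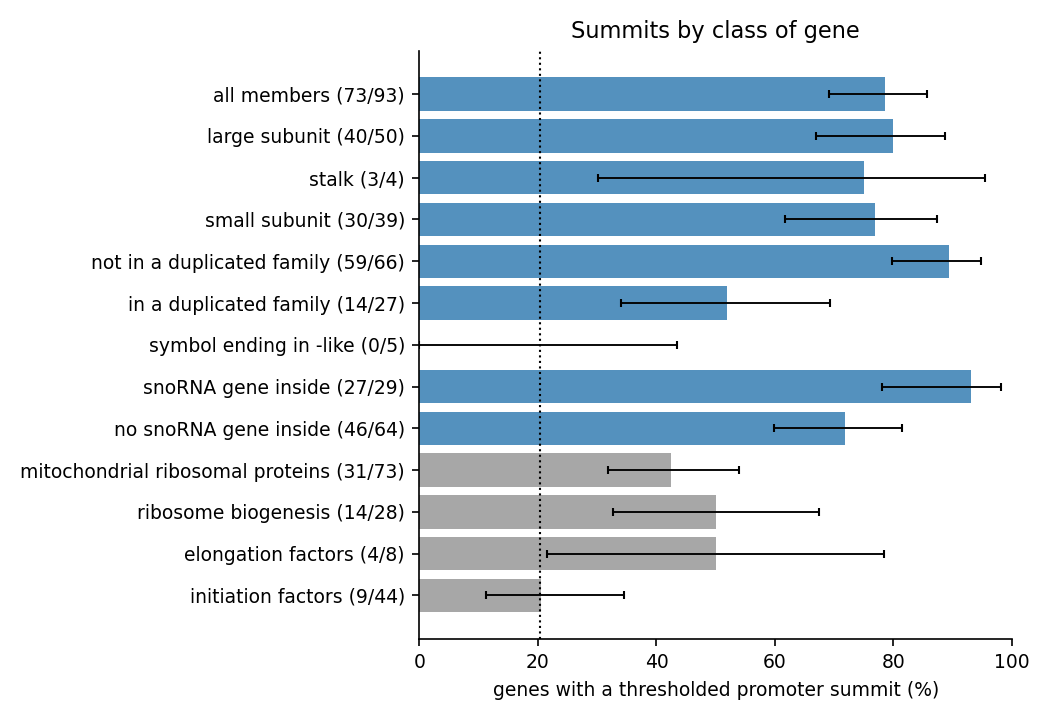
Percentage of genes in each class with a thresholded summit within 500 bp of a TSS (horizontal axis), with Wilson 95% intervals; blue bars are classes of the 93 cytosolic ribosomal protein genes, grey bars other genes of translation, and the dotted line is the share of all protein-coding genes, 20.4%. The 66 genes outside duplicated families stand highest apart from the snoRNA hosts, and the 5 genes with symbols ending in -like are at 0.

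The summits at these genes were common but not among the strongest in the data. Ranked by the authors' signal, where rank 1 is the highest of 6075, the best member stood at 375 and the median member at 2671, against a median of 2518 for the 2766 other genes with a thresholded summit. This order turned among the leading 6075 peaks of replicate 3, where the members' median was 2137 and that of other genes 2872. It also turned where only peaks that overlap a TSS were counted, at 2677 against 3134, so neither group is shown to rank higher. Split into 5 bins of equal length, the highest bin held 16 of the 73 members (21.9%) and 775 of the other genes (28.0%), while the middle bin held 22 members (30.1%) and 505 other genes (18.3%). The members nearest the threshold on its inner side were RpS9 (rank 5649, signal 143.8), RpS13 (5662, 143.5) and RpS2 (5797, 140.4). On the outer side stood RpL6 (pooled rank 6128, signal 133.1), RpS14b (6376, 128.3) and RpLP0-like (6379, 128.2).

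The strongest large subunit signal lay at RpL34b (FBgn0037686), with a thresholded and pooled signal of 863 at rank 375, and signals of 417 (rank 429) in replicate 2 and 443 (rank 341) in replicate 3. Its summit lay at -152 bp in the thresholded and pooled lists, -138 bp in replicate 2 and -185 bp in replicate 3. CG8132 also has a TSS within 500 bp of it, and that TSS is the nearer of the 2, so the summit cannot be given to RpL34b alone. RpL7 followed at rank 514 with a signal of 727, and ranked 783 (signal 306) in replicate 2 and 359 (427) in replicate 3. Its summit was at +24 or +25 bp in every list, just inside the transcribed region. RpL14, a host of 2 snoRNA genes, stood at rank 666 (signal 636), 758 (313) in replicate 2 and 590 (328) in replicate 3, at -26, -17 and -26 bp. RpL34a stood at rank 672 (631), 663 (341) and 732 (291), at -60, -115 and -62 bp. All 4 of these genes were in the leading 800 peaks of both replicates, and each has another protein-coding TSS within 500 bp of its summit.

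In the small subunit the highest signals were at RpS27 and RpS20. RpS27 stood at rank 659 (signal 638), with rank 676 (335) in replicate 2 and 684 (305) in replicate 3, and its summit at -12, -7 and -13 bp. RpS20, a host of 2 snoRNA genes, stood at rank 789 (575), 860 (293) and 790 (278), at -149, -150 and -137 bp. The RpS20 summits thus lay more than 100 bp further upstream than those of RpS27 in every list. The gene sta, which encodes the small subunit protein known elsewhere as uS2 or RPSA, stood lower, at rank 2683 (signal 265.5). It ranked 5691 (75.7) in replicate 2 and 1848 (169) in replicate 3, with summits at -31, +26 and -34 bp.

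The stalk is the flexible arm of the large subunit that recruits elongation factors, built on RpLP0 with RpLP1 and RpLP2 bound to it. RpLP0 was the strongest of the 3, at rank 760 (signal 589), 870 (290.5) in replicate 2 and 772 (283) in replicate 3, with summits at -26, -25 and -10 bp. RpLP1 stood at rank 1825 (348), 1661 (197) and 2262 (147), at -16, -24 and -16 bp. RpLP2 stood at rank 2698 (265), 1973 (174.5) and 4769 (85.8), with its summit at -94 bp, -149 bp in replicate 2 and +17 bp in replicate 3. The stalk genes thus had close positions in both libraries at RpLP0 and RpLP1 and positions on either side of the TSS at RpLP2.

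The members differed from other genes in where the summit lay. The median member summit was 26 bp upstream of the TSS (quartiles -64 to -3 bp) in the thresholded list, whereas that of the other genes was 147 bp upstream (quartiles -238 to -88 bp). Within 50 bp of the TSS lay 43 of 73 member summits (58.9%) and 244 of 2766 others (8.82%). Within 100 bp lay 66 members (90.4%) and 22.8% of the others. Each library taken by itself gave the same order, with medians of -44.5 against -136 bp in replicate 2 and -11.5 against -95 bp in replicate 3. The gap was present in each of the 5 bins of the ranking, from -57.5 against -157 bp in the highest to -28 against -127.5 bp in the lowest. It was as large where no other gene shared the summit: 40 such members had a median of -14.5 bp and 1194 such other genes had -160 bp. With 1 annotated TSS, where the choice of the nearest start plays no part, 33 members had -41 bp and 1552 other genes -147 bp. The large subunit summits had a median of -20 bp and those of the small subunit -35 bp. The members farthest upstream were RpS23 (-437 bp), RpL23 (-320 bp) and RpL10Ab (-250 bp). RpS23 and RpL23 each had another thresholded summit close to the start, at +19 and -22 bp.

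**Figure D2:**
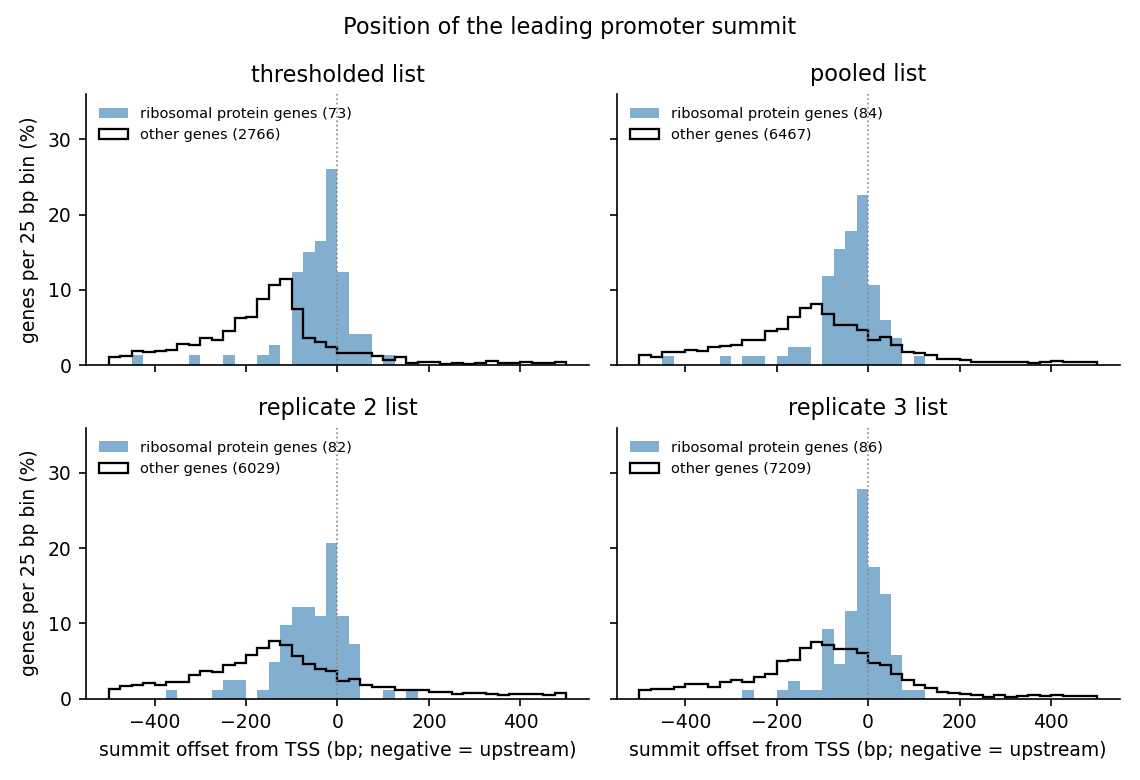
Offset of the highest-signal promoter summit from the nearest TSS of its gene, in bp (horizontal axis, negative is upstream), as the percentage of genes per 25 bp bin (vertical axis) in each of the 4 lists, for ribosomal protein genes (blue) and other protein-coding genes with a summit (black outline); numbers of genes are in the keys. Member summits crowd at the start, with a thresholded median of -26 bp, while those of other genes peak upstream, with a median of -147 bp.

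Base composition differed in the same way. In the 101 bp centred on thresholded summits, GC content averaged 42.0% ± 9.74 (SD over 73 members), compared with 31.1% ± 9.78 over 1958 other promoter summits, and 84.9% of members were above the mean of the others. In each of the 5 bins of the ranking the members' mean was higher, by the most in the highest (43.0% against 28.0%) and by the least in the lowest (37.9% against 34.6%). The gap was smaller in the lists of 30000 peaks, at 40.7% against 35.7% in replicate 2 and 43.1% against 38.2% in replicate 3. Promoters of the members did hold AT-rich sequence further upstream. Of their bases 69.1% were A or T in the 20 bp bin that begins 150 bp before the most 5′ TSS, compared with 68.7% for other genes with a thresholded summit and 64.5% for other protein-coding genes. In the bin that begins at -30 bp the members' share was 51.5%, and that of other genes with a summit 55.2%. The median summit of other genes thus lay near the highest AT content of their promoters, and that of the members near the lowest of theirs.

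**Figure D3:**
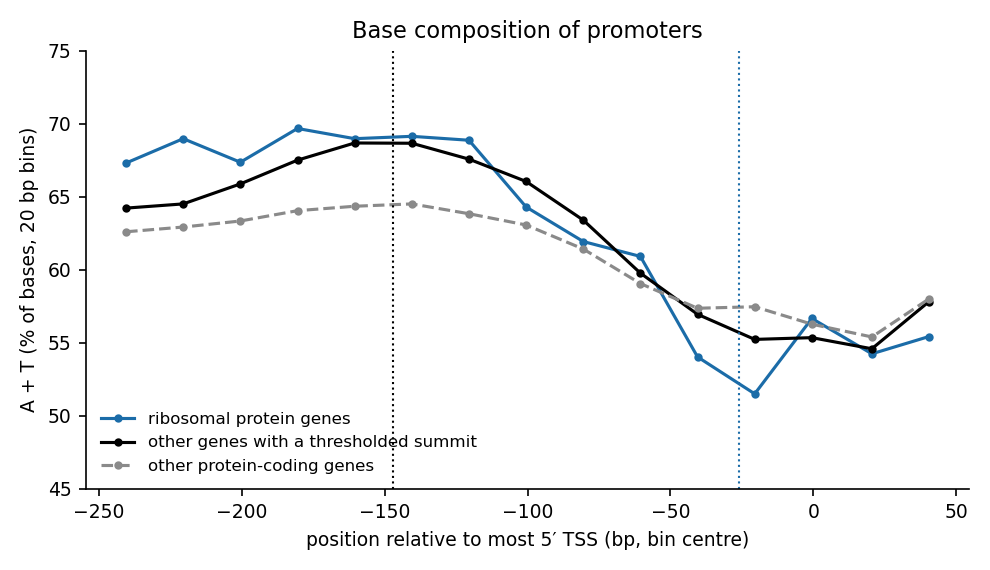
Percentage of bases that are A or T (vertical axis, which starts at 45%) in 20 bp bins relative to the most 5′ TSS in bp (horizontal axis) for the 93 ribosomal protein genes, other genes with a thresholded summit and other protein-coding genes; dotted vertical lines are the median offsets from the nearest TSS, -26 bp for members and -147 bp for other genes. The members' line falls from 69.1% in the bin that begins at -150 bp to 51.5% in the bin that begins at -30 bp.

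The 2 libraries placed the members' summits differently. Among 81 members with a summit in both replicates, 61 (75.3%) had a more downstream offset in replicate 3, with a median difference of 31 bp. For 5124 other genes these values were 52.0% and 3 bp. Each offset is from the nearest TSS of the gene, which can be a different TSS in each replicate. The offsets therefore need not give how far, or in which direction, a summit moved. The highest-signal summit of RpS12 lay at -218 bp in replicate 2 and +59 bp in replicate 3. That of RpL36A lay at -135 and +67 bp, from different TSSs, that of RpS6 at -99 and +47 bp and that of RpL23 at -364 and -23 bp. These genes were named after their values were seen. Replicate 2 also had a weaker summit at -14 bp at RpS12 and -148 bp at RpL23, and replicate 3 at -152 bp at RpS6. A moved summit and a change of leading summit thus cannot be told apart there. Ranks of the members in the 2 lists had a Spearman correlation of 0.67 and their log10 signals a Pearson correlation of 0.66 across 81 genes, against 0.76 and 0.82 across 5124 other genes. Genes within a library share its depth and processing, so these values describe the lists. Among the 73 members with a thresholded summit, the ranks differed most at RpL26, with rank 1179 (signal 243.5, +45 bp) in replicate 2 and 4854 (84.7, -97 bp) in replicate 3 and a thresholded rank of 2032 (324, +45 bp). RpS7, a host of 7 snoRNA genes, ranked 499 (394, -69 bp) and 1971 (162, -25 bp), with a thresholded rank of 836 (559, -69 bp). RpS29 went the other way, with rank 5689 (75.7, -2 bp) in replicate 2 and 1694 (180, -16 bp) in replicate 3 and a thresholded rank of 2909 (248, -3 bp). At each of RpL26, RpS7 and RpS29 the offsets of the 2 replicates are from different TSSs. By coordinate the replicate 3 summit lay further downstream at each of them, as at RpL26 (3L:18898920 in replicate 2 and 3L:18899007 in replicate 3, plus strand).

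**Figure D4:**
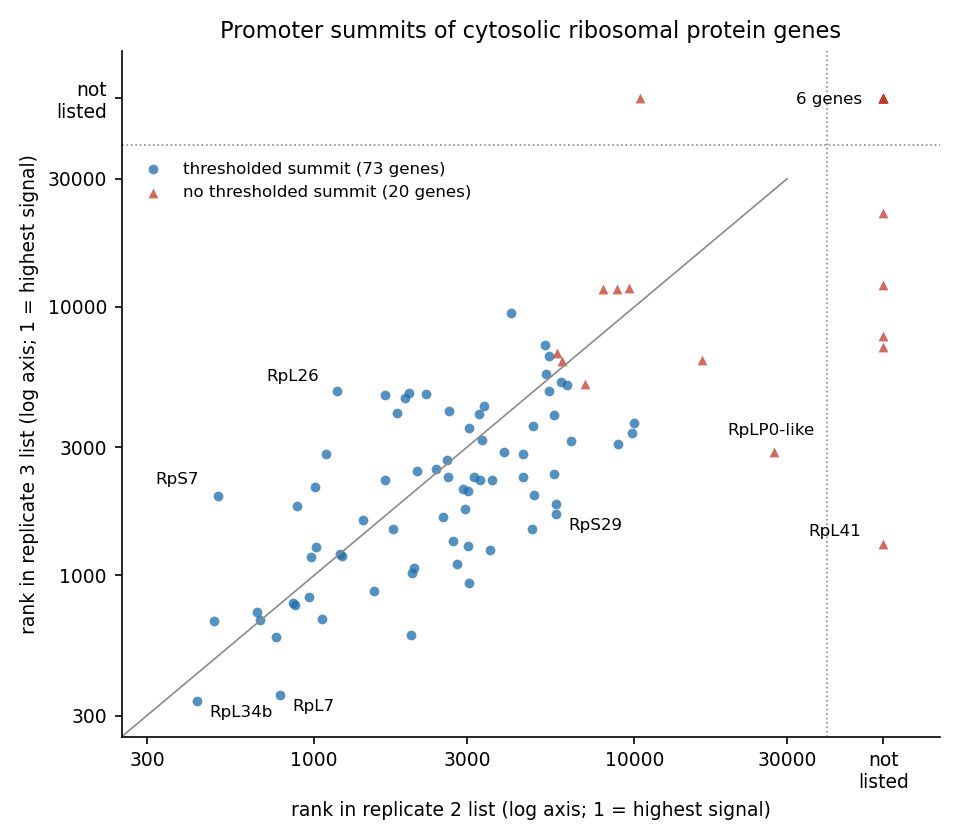
Rank of each member's highest promoter summit in the replicate 2 list (horizontal) and the replicate 3 list (vertical), both on log axes where low numbers are high signal; blue circles are the 73 genes with a thresholded summit, red triangles the 20 without, and the line marks equal ranks. RpL34b ranks within the first 500 in both, while RpL41 ranks 1302 in replicate 3 and is not listed in replicate 2.

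Of the 20 members without a thresholded summit, 11 had a weaker one in the pooled list and 3 had one in replicate 3 alone. The other 6, RpL10Aa, RpL22-like, RpL37-2, RpS15Ab, RpS19b and RpS28-like, had none in any list, and all 6 are copies in duplicated families. Of all 93 members 11.8% had a pooled but no thresholded summit and 6.45% had none, against 26.7% and 40.5% of other protein-coding genes. A summit in replicate 3 and not in replicate 2 was present at 5.38% of members and 15.1% of other genes. RpL41, the shortest ribosomal protein, had a strong summit in replicate 3 (rank 1302, signal 212, at -48 bp), but the nearest summit in replicate 2 was 3027 bp away and in the pooled list 1779 bp away. RpS28a had one in replicate 3 alone, at rank 7821 (signal 58.4, -262 bp). Presence in a single library leaves such genes without a replicate.

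The pooled but not thresholded genes outside duplicated families were RpL6, RpL15, RpL21, RpL40 and RpS30. RpL6 ranked 6128 pooled (signal 133.1, -275 bp), 5933 (72.8, -238 bp) in replicate 2 and 6268 (69.9, +4 bp) in replicate 3. RpL40, which is made as a fusion with ubiquitin, ranked 8162 (102, -83 bp), 5746 (74.9, -110 bp) and 6737 (66.0, +80 bp). RpS30, made as a fusion with a ubiquitin-like protein, ranked 8814 (94.9, +40 bp), 16323 (27.2, +39 bp) and 6312 (69.5, +31 bp). In contrast RpS27A, the other ubiquitin fusion, had a thresholded summit at rank 2840 (signal 253, -41 bp), named after its value was seen. RpL15 ranked 10710 (77.6, +26 bp), 9593 (45.1, +155 bp) and 11786 (40.5, +60 bp). RpL21 was the only member in replicate 2 and not replicate 3, at pooled rank 12700 (65.1, -38 bp) and replicate 2 rank 10418 (41.6, -38 bp).

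Duplicated families were grouped by symbol alone. In 12 of the 13, exactly 1 copy had a thresholded summit, and in RpL34 both copies did. The RpL34b summit lies nearer to CG8132, and where only the nearest TSS counted the number was 13. It was 10 with a window of 1000 bp and 10 without replicate 2. The families hold 27 genes, of which 14 had a thresholded summit (51.9%, interval 34.0 to 69.3), compared with 59 of 66 other members (89.4%, interval 79.7 to 94.8). All 5 genes with symbols ending in -like lacked one, a count that allows a share of up to 43.4%. The copies without a thresholded summit include genes with restricted expression: RpL22-like is best known from the testis, and RpS5b and RpS19b from the germ line. They also include RpL24-like, RpL7-like and RpLP0-like, whose yeast counterparts Rlp24, Rlp7 and Mrt4 help to assemble the large subunit and are not parts of the mature ribosome. These are only some of the copies without a thresholded summit. Neither expression nor function was measured in these data, and a link of either with the summits was not tested.

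The copies that carried a thresholded summit had thresholded ranks from 375 to 3618. RpL24 stood at thresholded rank 794 (signal 573, -8 bp), 1059 (260.5, -1 bp) in replicate 2 and 689 (304, -9 bp) in replicate 3. RpL24-like ranked 12004 (69.1, -29 bp) in the pooled list, 8808 (49.1, -269 bp) and 11631 (41.0, +54 bp). RpL7-like ranked 10528 (78.9, -71 bp) in the pooled list and 7097 (63.2, -88 bp) in replicate 3, with none in replicate 2. RpL24 and RpL7 thus stood far above their -like copies in each list. RpLP0-like ranked 6379 (128.2, -60 bp) pooled, 27254 (17.6, -77 bp) in replicate 2 and 2878 (125, -81 bp) in replicate 3, so the 2 libraries differed widely at this gene. RpL22 stood at rank 1868 (343, -41 bp), 3536 (113.5, -47 bp) and 1245 (218, -39 bp), where RpL22-like had none. RpL37-1 stood at 3408 (219, -26 bp), 3343 (118, -54 bp) and 3181 (116, -2 bp), where RpL37-2 had none. RpL10Ab stood at 3017 (241, -250 bp), 1667 (196, -232 bp) and 4706 (86.5, -94 bp); the nearest summit to RpL10Aa was 2475 bp away, in replicate 2.

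The small subunit copies followed the same arrangement. RpS10b stood at thresholded rank 1558 (signal 386, -21 bp), 1002 (268.5, -42 bp) in replicate 2 and 2137 (153, +5 bp) in replicate 3. RpS10a ranked 8699 (96.2, -198 bp) pooled, 7972 (53.9, -159 bp) and 11672 (40.9, -169 bp). RpS28b stood at 2771 (258, -34 bp), 3026 (127, -79 bp) and 2057 (157, -31 bp). RpS28-like had no summit within the window, but a replicate 2 summit lay 505 bp from its TSS, just outside it. RpS28a had a thresholded summit 522 bp from its TSS, also just outside the window. RpS19a stood at 3094 (237, +29 bp), 3298 (119, -71 bp) and 2273 (147, +30 bp), and the thresholded summit nearest to RpS19b was 893 bp away. RpS15Aa stood at 3581 (210.4, -20 bp), 4503 (93.4, +8 bp) and 2325 (145, +39 bp), where RpS15Ab had none. RpS5a, a host of 14 snoRNA genes, stood at 3618 (209, -77 bp), 3401 (117, -77 bp) and 4268 (93.1, -96 bp), and RpS5b ranked 26555 (30.2, -170 bp) pooled and 22376 (21.9, -170 bp) in replicate 3 only. RpS14a stood at 3303 (225, -64 bp), 2241 (160, -118 bp) and 4754 (85.9, +2 bp), and RpS14b at 6376 pooled (128.3, -45 bp), 6991 (61.5, -2 bp) and 5180 (80.5, -46 bp). RpS14a and RpS14b are neighbouring copies on X. How alike their sequences are was not computed, so whether reads are shared between them is unknown and the difference in rank is uncertain.

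**Figure D5:**
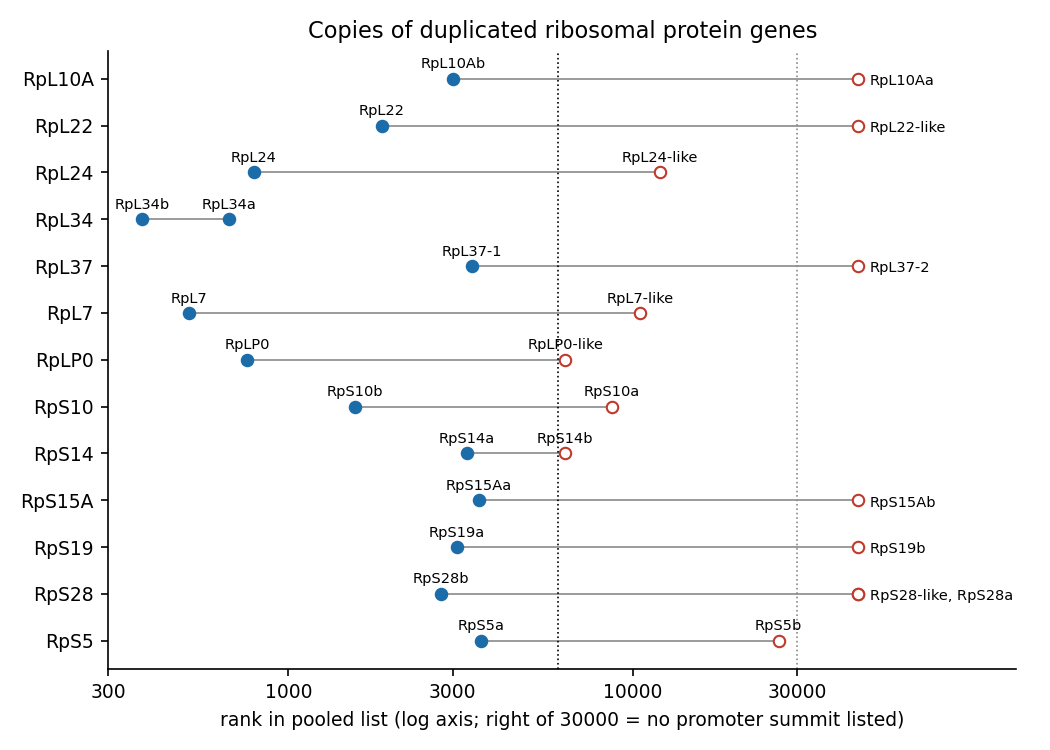
Rank in the pooled list (horizontal, log axis) of each copy in the 13 duplicated families (vertical); filled circles passed the threshold, open circles did not, the black dotted line is the thresholded list's length of 6075, and points right of 30000 have no pooled promoter summit. Both RpL34 copies are filled, and in every other family 1 copy is.

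Members that host a snoRNA gene had a thresholded summit in 27 of 29 cases (93.1%, interval 78.0 to 98.1), and members without one in 46 of 64 (71.9%, interval 59.9 to 81.4). The share of all protein-coding genes was 20.4%. In duplicated families only RpL10Ab, RpL22 and RpS5a host a snoRNA gene, and every copy without a thresholded summit is a non-host. Hosting and duplication thus overlap, and the part of each was not tested. Another protein-coding gene had a TSS within 500 bp of the summit at 33 of 73 members (45.2%), against 56.8% of 2766 other genes. At 70 of the 73 the member itself, alone or level with a neighbour, had the nearest TSS, the exceptions being RpL18, RpL23 and RpL34b. A further thresholded summit was present at 8 members (11.0% of 73, against 8.97% of 2766), among them RpL18, RpL23, RpL27A, RpL28, RpS7, RpS23 and RpS27. The 2 summits were 201 to 216 bp apart at 6 of these genes, close to the shortest spacing of 199 bp in each list, so 1 broad region and 2 separate sites cannot be told apart at these genes. RpS27, for example, had its second summit at rank 5588 and -219 bp.

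The TCT initiator, the DRE, motif 1 and the sequence CACGTG were more frequent among the members than across all genes. Within 10 bases of a start, the TCT initiator (CTTTT or CTTTC, sense strand) occurred at the most 5′ TSS of 31 of 93 members (33.3%) and 5.01% of all genes, and at any TSS of 57 members (61.3%) and 7.38% of all genes. Members with it had a thresholded summit in 50 of 57 cases and members without it in 23 of 36, with median offsets of -23 and -31 bp. The position near the start was thus shared by both classes of member. Among other genes, 26.3% of 972 with the initiator and 19.5% of 12880 without it had a summit, and the median offsets were -154 and -145 bp.

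The remaining 9 motifs were searched on both strands from 250 bp before to 50 bp after the most 5′ TSS. The DRE (TATCGATA) occurred in 28 of 93 members (30.1%, interval 21.7 to 40.1), where 9.36% of all such windows held it. Within 50 bp of the thresholded summit it occurred at 13 of 73 members (17.8%), against 2.36% of 2839 genes. The core of motif 1 (GGTCACAC) occurred in 15 members (16.1%, against 7.70%) and near 7 summits (9.59%, against 1.16%). Both elements were thus more frequent near the members' summits, which also lie nearer to the TSS, and the part of position in these shares was not tested. A thresholded summit was present at 22 of 28 members with the DRE and 51 of 65 without it. Of other genes, 28.7% of 1277 with the DRE and 19.1% of 12575 without it had one. The E-box CACGTG occurred in 8 members (8.60%, interval 4.42 to 16.1, against 4.20%) and near 4 summits (5.48%, interval 2.15 to 13.3, against 0.775%). Counted at any TSS, its share was 16.1%, against 5.30%. CATATG occurred in 4 members (4.30%, against 7.82%) and CAGCTG in 9 (9.68%, against 17.7%). Near summits CATATG occurred at 1.37% against 2.89% and CAGCTG at 4.11% against 3.21%. GAGAGAG occurred in 0 of 93 members, which allows up to 3.97%, against 5.87% of all genes. TATAAA was as frequent in the members' windows (48.4%) as in all windows (45.8%), but near summits it occurred at 12.3% of members and 28.5% of all genes. The interval of that share for the members was 6.62 to 21.8%. AAAAAAAA occurred in 22.6% against 16.0% of windows and in 2.74% (interval 0.755 to 9.45) against 7.36% near summits. ATTTAAAA occurred in 19.4% against 14.2% of windows and in 5.48% (interval 2.15 to 13.3) against 8.49% near summits. The intervals near summits hold the share of all genes for both of these motifs. Member summits lie nearer to the TSS and in less AT-rich sequence than those of other genes. The part of position and base composition in the TATAAA, AAAAAAAA and ATTTAAAA shares near summits was not tested.

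Other genes of translation gave a mixed comparison. Of 73 mitochondrial ribosomal protein genes, which encode the separate ribosome of that organelle, 31 had a thresholded summit (42.5%, interval 31.8 to 53.9), at a median of -142 bp with 0 within 50 bp of the TSS. Of 28 ribosome biogenesis genes, 14 had one, at a median of -137.5 bp and again with 0 within 50 bp. Initiation factors had one in 9 of 44 cases (20.5%), close to the share of all genes. Of 8 elongation factor genes, 4 had one, and 3 of these lay within 50 bp of the TSS, at a median of -26 bp over the 4. They were eEF2 (rank 2368, -15 bp), which moves the ribosome along the message, eEF1gamma (rank 631, -37 bp), eEF5 (rank 2613, +1 bp) and, farther out, eEF1alpha1 (rank 4396, -63 bp). The cytosolic ribosomal protein genes and these 4 elongation factor genes had similar median positions, and the mitochondrial ribosomal protein genes had the upstream position of other genes.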

How the data were processed

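ChIP-seq peak lists of 2 libraries of 1 group were used: 1 list per replicate, 1 of the pooled replicates and 1 thresholded by reproducibility, on dm6 per the labels and the deposited notes, which also name a control alignment. For the aligner, the peak caller and the threshold used, nothing is given in the sources used here. Signal values are the authors' own, deposited on an unstated scale, and ranked peaks within a list only; the deposited −log10 q-value was only inspected. The 6075 thresholded peaks are the 6075 highest of the pooled list, so both give such a member the same values.

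The annotation was that of Ensembl release 115, the genome was RefSeq Release 6, and all 93 members had the same coordinates in both. A summit, taken from the deposited offset column, was given to every gene with a TSS within 500 bp, and the highest signal counted for each gene. Offsets are from the nearest TSS of that gene. Shares have Wilson 95% intervals. No test was made, since 1 group of 2 libraries allows no comparison of conditions. The assignment was tested on simulated data. Python 3.11.15, pandas 2.3.3, numpy 2.4.6 and scipy 1.17.1 were used.

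Named with values were the 8 members of highest signal, the stalk genes and sta, every member without a thresholded summit, all duplicated copies (symbols alike up to a final letter, number or -like) and the 3 genes with a thresholded summit whose replicate ranks differed most. Some genes taken by this rule are not reported here. Members and lists were chosen with earlier results of these data known. Of the biogenesis list, 4 symbols had no gene and were left out. Alternatives varied the window, the peaks used, the TSS used, the replicate and the motif window.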

Additional observations from a re-analysis of the deposited data

How the results depend on the processing

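With 2 libraries, a median or mean is called moved where it changed by at least the SD between the 2 replicate lists, a count where it changed by over 1.5 times, and a motif share where it left its Wilson interval. The number of members with a thresholded summit was 49 to 75 across 9 alternatives, lowest with only the leading 3037 peaks of the list. Families with exactly 1 copy called numbered 10 to 13, and members in both replicates 65 to 83. Without replicate 2 or replicate 3, where the leading peaks of the other library stand in, the member count was 73 and 70, the median offset -12 and -50.5 bp, the median rank 2137 and 2613, the families 10 and 12, and the mean GC content 44.4% and 40.8%. In these 2 settings other genes had median offsets of -128 and -159 bp and median ranks of 2872 and 2339. With those 3037 peaks the median rank was 1772, since lower ranks are left out. Within 50 bp of summits the DRE share was 17.8% and the motif 1 share 9.59%, from a shorter window and fewer genes. Counting any TSS, added after seeing the data, raised the TCT share to 61.3% and the CACGTG share to 16.1%. Of 60 alternative values, 47 stayed within these limits, 13 moved and 0 changed sign. No paired analysis was possible because there is a single group. The number of reads is unknown, so a member not listed is not shown to lack signal.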
